A study of Mus musculus with 35 samples.

Results

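Late 2-cell mouse embryos in which DUX had been targeted (DUX-LOF, 9 embryos) were compared directly with late 2-cell embryos in which SRF had been targeted (SRF-LOF, 7 embryos). These 16 embryos were chosen by their sample titles, out of 35 single embryos in the series. LOF stands for loss of function. DUX-LOF embryos had received antisense oligonucleotides against DUX and no mRNA. SRF-LOF embryos had received mRNA of a dominant negative SRF and no oligonucleotide. For reference, 10 double-LOF embryos had received both agents, and 9 control embryos a scrambled antisense oligonucleotide. All were of the cross F1(C57BL/6JxCBA/H), were microinjected as zygotes 24 h after hCG, given to induce ovulation, and were kept in KSOM medium up to collection at 48 h. No group held mRNA of a neutral protein, so agent and target cannot be told apart in the direct comparison alone. Each embryo was 1 library made with Smart-seq+5', a form of Smart-seq2 that yields reads from transcript 5' ends beside reads from inside the transcript. Nothing in the labels names litters, injection days or batches, and p-values therefore cover only the spread among the embryos at hand.

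DUX is a double homeobox transcription factor that is made for a short time when the mouse zygotic genome is first switched on, and it binds near and activates the Zscan4 genes, MERVL elements and other genes of the 2-cell stage. SRF is a MADS-box transcription factor that binds the CArG box and, with its cofactors, controls genes of the actin cytoskeleton and immediate early genes. At the late 2-cell stage the embryo still holds RNA laid down in the oocyte, which is being degraded while transcription from its own genome rises.

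To show the letters near genes that the results turn on, the 250 bases before the RefSeq start of 5 named genes are printed from RefSeq (GRCm38.p6), 5' to 3' on the gene's strand. These are the named genes with the lowest adjusted p that hold a match. Capitals mark matches to GATTNNATC, a core of the DUX site searched on both strands, or to the CArG box, which reads alike on both strands. The matches start at -82 and -62 from the start in Srf, -116 in Gm8994, -90 in Zscan4f, -113 in Zscan4c and -73 in Acta1.
Srf (chr17:46556163-46556412, minus strand): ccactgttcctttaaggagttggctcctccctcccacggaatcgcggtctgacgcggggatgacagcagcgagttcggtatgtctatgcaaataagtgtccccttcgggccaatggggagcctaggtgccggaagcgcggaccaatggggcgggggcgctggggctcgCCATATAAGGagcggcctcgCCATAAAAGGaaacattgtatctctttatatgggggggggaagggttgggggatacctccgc
Gm8994 (chr6:136327289-136327538, plus strand): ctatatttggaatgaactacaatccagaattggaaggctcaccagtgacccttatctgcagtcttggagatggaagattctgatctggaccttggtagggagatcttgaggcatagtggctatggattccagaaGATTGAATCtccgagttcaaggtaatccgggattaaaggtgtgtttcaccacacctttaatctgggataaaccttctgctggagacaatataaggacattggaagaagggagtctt
Zscan4f (chr7:11397665-11397914, plus strand): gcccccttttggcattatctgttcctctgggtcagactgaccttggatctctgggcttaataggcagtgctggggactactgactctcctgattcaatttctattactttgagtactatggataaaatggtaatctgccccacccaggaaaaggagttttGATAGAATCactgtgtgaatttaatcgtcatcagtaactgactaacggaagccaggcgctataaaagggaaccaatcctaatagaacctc
Zscan4c (chr7:11005495-11005744, plus strand): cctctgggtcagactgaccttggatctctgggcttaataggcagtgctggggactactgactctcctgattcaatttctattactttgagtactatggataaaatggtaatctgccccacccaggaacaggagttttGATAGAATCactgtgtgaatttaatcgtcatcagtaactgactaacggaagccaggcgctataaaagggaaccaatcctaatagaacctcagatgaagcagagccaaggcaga
Acta1 (chr8:123894776-123895025, minus strand): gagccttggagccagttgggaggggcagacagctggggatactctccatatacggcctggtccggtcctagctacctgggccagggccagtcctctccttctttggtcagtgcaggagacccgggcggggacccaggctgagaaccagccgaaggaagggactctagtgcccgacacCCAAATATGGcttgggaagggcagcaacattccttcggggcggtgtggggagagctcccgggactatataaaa
Of 101 named genes 84 had a RefSeq window of 300 bases, reaching 50 bases past the start. In these windows 6 genes held GATTNNATC and 4 held a CArG box. Of all 32851 windows, 1.58% held GATTNNATC and 1.63% a CArG box. A comparison of motif shares between called genes is void, because the share of protein-coding genes lower in DUX-LOF that had a window, 79.4%, was under the minimum set for it. A match describes letters and no binding.

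Internal gene counts of the 16 embryos ranged from 488787 to 1734954 per library, and 5' gene counts from 505157 to 1908409. Markers of the late 2-cell stage were present in both groups. Zfp352 had 90.8 to 321.2 CPM in DUX-LOF and 310.7 to 674.2 CPM in SRF-LOF embryos. Other markers reached lower levels in DUX-LOF embryos. Zscan4d, Tcstv3 and Tdpoz4 had 14.9 to 120.2, 2.80 to 94.5 and 3.88 to 281.2 CPM there. In SRF-LOF embryos they had 99.9 to 1372, 141.3 to 333.3 and 36.5 to 254.5 CPM. Values of Zscan4c, Zscan4f and Gm5039, which separated the groups, are given below. CPM are counts scaled to a common library total. The inner cell mass gene Nanog and the trophoblast gene Cdx2 had 15 and 10 counts over 9 DUX-LOF embryos and none over 7 SRF-LOF embryos. Other genes of later lineages went both ways. Gata6, Sox2 and Eomes had 35, 23 and 29 counts over DUX-LOF and 9, 6 and 9 over SRF-LOF embryos. Sox17 and Elf5 had 3 and 0 counts over DUX-LOF and 35 and 3 over SRF-LOF embryos. Pou5f1 had medians of 159.9 CPM in DUX-LOF and 287.5 CPM in SRF-LOF embryos. Markers of cumulus cells, sperm and blood were low: their summed levels per embryo were 28.7 to 167.6, 2.08 to 10.1 and 76.3 to 183.9 CPM in DUX-LOF embryos, against 18.7 to 214.3, 5.21 to 13.2 and 12.7 to 106.3 CPM in SRF-LOF embryos. Of 14 cumulus markers 2 were at 0 in every DUX-LOF and 5 in every SRF-LOF embryo, of 9 sperm markers 3 and 4, and of 11 blood markers 4 and 5, with Ptprc and Tnp1 at 0 in both groups. Of the 5 such markers that passed the filter on low counts the blood marker Lyz2 was called, at a log2 difference of 2.43 ± 0.93 (adjusted p = 0.0394), a call lost in 8 of 27 alternatives. The part of other cells in the results was not tested.

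Embryos of the SRF-LOF group did not lie together. On the first principal component of all genes tested, which held 33.9% of the variance over 35 embryos, DUX-LOF embryos lay between -89.9 and -17.1. SRF-LOF 3 and 8 lay at -37.2 and -11.9, near them, and the other 5 SRF-LOF embryos between 106.1 and 150.5. Double-LOF embryos lay between -115.5 and 110.0 and control embryos between -86.0 and 111.8, so such a spread was not particular to SRF-LOF. The mean log2 CPM of 73 maternal oocyte transcripts ranged from 6.59 to 7.24 in DUX-LOF and from 7.39 to 8.64 in SRF-LOF embryos, so the groups did not overlap in it. It reached from 6.07 to 7.47 in double-LOF and from 6.75 to 8.09 in control embryos. Because this level moves with the groups, its part in the results below was not tested beyond the fits that scale to it or hold it as a covariate.

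**Figure D1:**
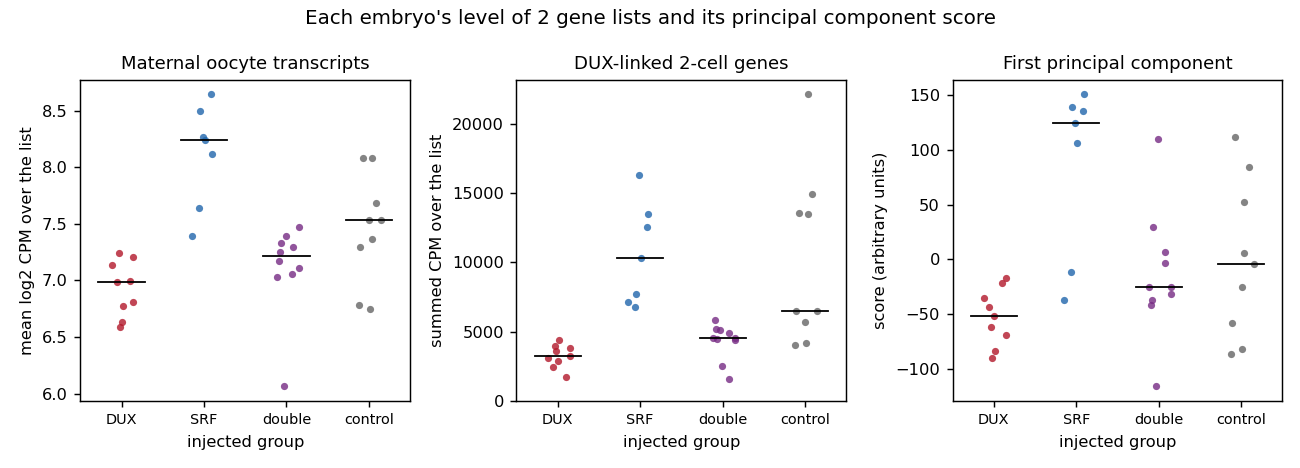
Each point is an embryo and each line a group median, for the mean log2 CPM of maternal oocyte transcripts (left), the summed CPM of DUX-linked 2-cell genes (middle) and the first principal component score (right, arbitrary units). DUX-LOF embryos lie below all SRF-LOF embryos in both lists (6.59 to 7.24 against 7.39 to 8.64, and 1693 to 4364 against 6803 to 16324 CPM), and 2 SRF-LOF embryos lie near the DUX-LOF embryos on the component.

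Srf, the gene targeted in SRF-LOF embryos (chromosome 17, 46548329 to 46556175, GRCm38) had a lowest, median and highest level of 15.6, 22.6 and 51.2 CPM in DUX-LOF embryos, against 97.0, 288.4 and 805.2 CPM in SRF-LOF embryos. Every SRF-LOF embryo lay above every DUX-LOF embryo, and the log2 fold change of DUX-LOF over SRF-LOF was -3.77 ± 0.42 (SE; edgeR, adjusted p = 1.14e-07). Double-LOF embryos had 216.6, 587.7 and 1658 CPM and controls 11.7, 20.2 and 41.2 CPM. A gene count holds reads of the gene and of any injected mRNA that carries its sequence, and these were not separated. SRF-LOF 8 and 3, the embryos that lay near DUX-LOF on the first component, had the lowest Srf levels of their group, at 97.0 and 181.0 CPM. Control embryos, which held no SRF mRNA, also spread widely on that component, and a link to the Srf level was not tested.

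Duxf3, the row of the Dux repeat array on chromosome 10, had 0, 2.83 and 117.2 CPM in DUX-LOF embryos, against 4.27, 11.8 and 41.5 CPM in SRF-LOF embryos. The highest value belonged to DUX-LOF 10, and the other 8 DUX-LOF embryos lay between 0 and 8.12 CPM. With all embryos DUX-LOF averaged 16.1 ± 38.0 CPM (SD, n = 9) and SRF-LOF 16.3 ± 12.6 CPM (SD, n = 7), and the log2 fold change was 0.00 ± 0.78 (edgeR, adjusted p = 0.998). Without DUX-LOF 10 the DUX-LOF mean was 3.50 ± 3.06 CPM (SD, n = 8) and the log2 fold change -2.07 (edgeR, adjusted p = 0.0236). In 5' reads, with all embryos, the log2 fold change was -0.88 (edgeR, adjusted p = 0.506). Double-LOF embryos, which also held the DUX oligonucleotides, had 0, 7.90 and 34.3 CPM, and controls 0, 7.96 and 23.8 CPM. DUX-LOF 10 also had the lowest summed level of DUX-linked 2-cell genes of its group, at 1693 CPM. Copies of Dux share reads, so the value of this row is uncertain.

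Over all genes, 4146 of 11940 tested differed between DUX-LOF and SRF-LOF embryos (edgeR's quasi-likelihood test, Benjamini-Hochberg adjusted p under 0.05), which is 34.7%. Of these, 2114 (17.7%) were higher and 2032 (17%) lower in DUX-LOF, and 1923 and 1640 of them changed at least 2-fold. The median log2 fold change of all genes was 0.07. With SRF-LOF 3 and 8 left out, 6296 of 12538 genes tested were called, 3740 higher and 2556 lower. With the maternal level as a covariate 933 were called, 456 higher and 477 lower. Of these, 501 were among the 4146 with the same direction. The balance depended on the scaling: 51.0% of calls were higher with the main scaling, 74.9% (2106 of 2810) with scaling to ERCC spike-ins and 94.5% (5670 of 6003) with scaling to the maternal list, under which the median of all genes stood at 0.43 and 1.12. Scaling to the maternal list called 5670 of all 11940 genes higher and 333 lower. Counts of list members under these fits, given below, are to be read beside the counts over all genes. Values of DUX-LOF and of SRF-LOF against control are given beside single genes below. They share these embryos and the 9 controls, so they are no independent check.

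A stricter view used single embryos and the second read class. In 769 genes (6.44%) all 9 DUX-LOF embryos lay on one side of all 7 SRF-LOF embryos, 472 above and 297 below. In 5' reads 4050 of 11749 genes were called (34.5%). Of the 4146 genes called in internal reads 3799 were tested in 5' reads, where 2924 were called in the same direction and 874 were not called. Both read classes come from the same embryos. Genes called in both read classes with no overlap between embryos numbered 665, with 418 higher and 247 lower in DUX-LOF.

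Zygotic 2-cell genes linked to DUX were mostly lower in DUX-LOF embryos. Of 52 tested members of a list of 56 DUX-linked 2-cell genes, 34 were lower and 4 higher in DUX-LOF, beside 17% and 17.7% of all genes. The median log2 fold change of the 52 was -2.07, beside 0.07 over all genes. The summed level of the list was 3235 ± 822 CPM in DUX-LOF and 10630 ± 3652 CPM in SRF-LOF embryos (SD, n = 9 and n = 7), against 4304 ± 1287 CPM in double-LOF and 10116 ± 6226 CPM in control embryos. With scaling to the maternal list 23 members were lower and 8 higher (median -0.90), and without SRF-LOF 3 and 8 34 lower and 6 higher. With the maternal level as a covariate 5 were lower and 1 higher (median -0.93).

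Zscan4c (chromosome 7, 11005745 to 11010547), of a zinc-finger family tied to telomere upkeep in mouse embryonic stem cells, had 5.27, 22.0 and 40.3 CPM in DUX-LOF embryos and 54.7, 410.1 and 1558 CPM in SRF-LOF embryos. The groups did not overlap, as the choice of this gene required, and the log2 fold change was -4.77 ± 0.78 (edgeR, adjusted p = 2.74e-05). Its neighbour Zscan4f, whose printed promoter shares long stretches with that of Zscan4c, had 7.76, 24.4 and 59.4 CPM in DUX-LOF embryos against 93.1, 383.6 and 1028 CPM in SRF-LOF embryos (log2 fold change -4.26 ± 0.69, adjusted p = 2.22e-05). Control embryos spread widely, with 8.49 to 916.0 CPM of Zscan4c and 33.4 to 1944 CPM of Zscan4f. Copies of this cluster share reads, so their single values are uncertain.

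Gm5039 had 0.699, 10.5 and 14.6 CPM in DUX-LOF embryos, against 103.3, 291.0 and 622.2 CPM in SRF-LOF embryos (log2 fold change -5.18 ± 0.79, adjusted p = 1.06e-05). Gm8994, which holds GATTGAATC in its printed promoter, had 0.625, 8.77 and 22.0 CPM in DUX-LOF embryos, against 71.7, 338.9 and 754.2 CPM in SRF-LOF embryos (log2 fold change -5.15 ± 0.80, adjusted p = 1.26e-05). Ddit4l, an inhibitor of mTOR signalling, had 9.15, 18.7 and 37.7 CPM in DUX-LOF embryos and 79.4, 196.6 and 377.0 CPM in SRF-LOF embryos (log2 fold change -3.35 ± 0.50, adjusted p = 8.01e-06). In all 3 the highest DUX-LOF embryo lay below the lowest SRF-LOF embryo. Tcstv1, a gene of the 2-cell-like state of mouse embryonic stem cells, did the same, with a log2 fold change of -3.10 ± 0.46 (adjusted p = 7.75e-06). The 4 members that were higher in DUX-LOF were Abcb5, Pif1, Tdpoz2 and B020004J07Rik, with log2 fold changes of 1.91 to 2.82.

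Outside that list, several genes chosen for having no overlap were lower in DUX-LOF. Mest (chromosome 6, 30723547 to 30748465), an imprinted gene expressed from the paternal copy, had 1.75, 6.99 and 11.2 CPM in DUX-LOF embryos, against 99.6, 119.6 and 161.4 CPM in SRF-LOF embryos (log2 fold change -4.10 ± 0.35, adjusted p = 5.85e-10). Double-LOF embryos lay at 2.94 to 25.3 CPM and controls at 49.9 to 166.9 CPM, so both groups with the DUX oligonucleotides lay below both groups without. Kbtbd8, a substrate adaptor of the CUL3 ubiquitin ligase, had 17.5, 35.4 and 76.2 CPM in DUX-LOF embryos against 277.9, 600.5 and 891.6 CPM in SRF-LOF embryos (log2 fold change -3.74 ± 0.37, adjusted p = 9.93e-09). Its double-LOF and control embryos lay at 31.9 to 149.5 and 216.9 to 673.6 CPM. Zscan4-ps3, the olfactory receptor gene Olfr376, the PRAME family gene Pramef6 and D6Ertd527e completed the largest decreases, with log2 fold changes of -3.84, -3.75, -3.36 and -3.64. For D6Ertd527e the fits against control gave -1.60 for DUX-LOF (adjusted p = 0.00588) and 2.04 for SRF-LOF (adjusted p = 0.0186), so that the 2 groups lay on opposite sides of the controls.

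**Figure D2:**
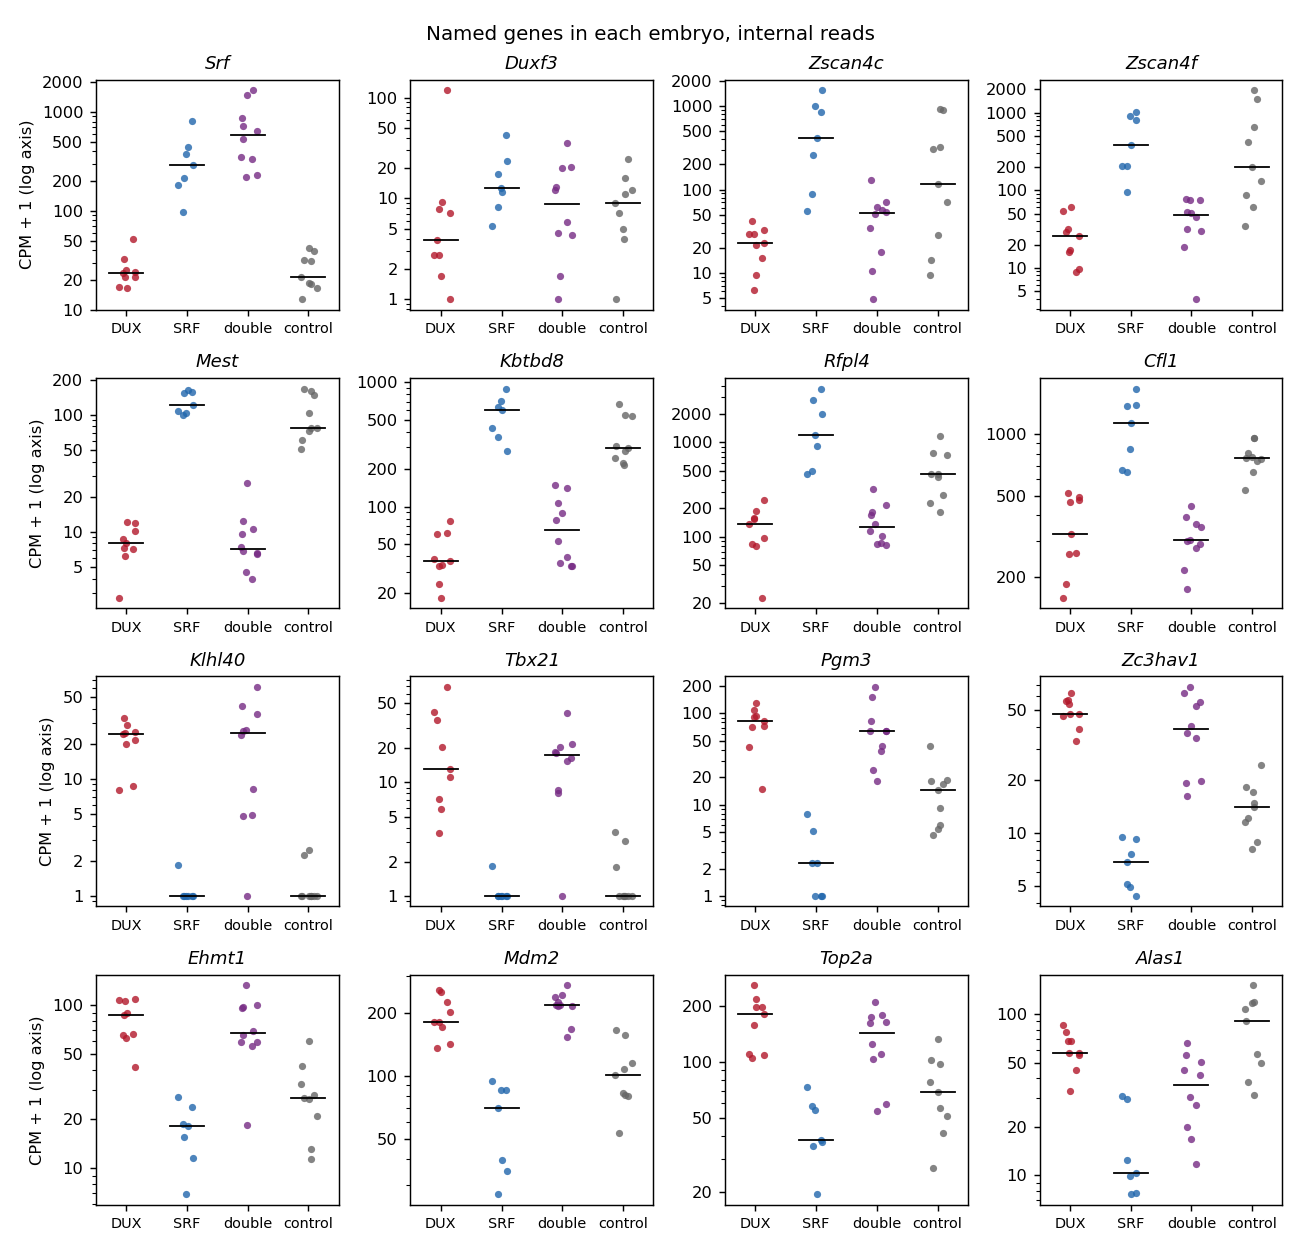
CPM plus 1 in internal reads (log axis) for 16 named genes, 1 point per embryo, lines at group medians, in DUX-LOF (9), SRF-LOF (7), double-LOF (10) and control (9) embryos. Srf is high where SRF-DN mRNA was injected (medians 288.4 CPM in SRF-LOF and 587.7 CPM in double-LOF), Mest and Kbtbd8 are low where DUX oligonucleotides were injected, and Duxf3 shows the single DUX-LOF embryo at 117.2 CPM.

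RNA laid down in the oocyte was lower in DUX-LOF than in SRF-LOF embryos. The 73 tested members of a list of 78 maternal oocyte transcripts had a median log2 fold change of -1.22. Of the 73, 51 were lower and 2 higher, beside 17% and 17.7% of all genes. These counts were 50 to 52 lower with the DESeq2 test or size factors, TMM over genes and repeats, or only the 16 embryos, 26 lower and 3 higher with ERCC scaling, and 18 lower and 14 higher when scaled to the list itself. Rfpl4, a RING-finger-like gene of the oocyte, had 21.7, 135.0 and 244.0 CPM in DUX-LOF embryos and 462.0, 1186 and 3722 CPM in SRF-LOF embryos (log2 fold change -3.69 ± 0.45, adjusted p = 4.68e-07). Nlrp4f and Kpna7, an importin of the oocyte, also separated all embryos, with log2 fold changes of -2.71 ± 0.40 and -2.39 ± 0.34. E330034G19Rik fell by 3.44 ± 0.43 on the log2 scale, with overlap between the groups. Beside controls, Rfpl4 had log2 fold changes of -2.03 in DUX-LOF (adjusted p = 0.000633) and 1.66 in SRF-LOF embryos (adjusted p = 0.0369). The 2 list members higher in DUX-LOF were Dnmt1, the maintenance DNA methyltransferase, at 1.11 and Trim28, the KAP1 co-repressor, at 2.01. In bulk RNA of an embryo, fewer cells of a type and less RNA per cell cannot be told apart.

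Genes higher in DUX-LOF included many that were at or near 0 in SRF-LOF embryos. For these, ratios come from summed counts and their intervals (95%, exact binomial) cover counting error only. Klhl40 (chromosome 9, 121777607 to 121783818), a Kelch protein of muscle thin filaments, had 249 counts over 9 DUX-LOF embryos and 1 over 7 SRF-LOF embryos, a ratio of 166.6 after scaling (interval 29.6 to 6608). Every DUX-LOF embryo held between 7.01 and 32.3 CPM. The double-LOF median was 23.6 CPM, and control embryos reached 1.47 CPM. Tbx21, the T-box factor of type 1 immunity, had 2.60 to 68.3 CPM in DUX-LOF embryos and 0 to 0.854 CPM in SRF-LOF embryos (230 counts against 1). Cyp2c65, a cytochrome P450, had 196 counts in DUX-LOF and none in SRF-LOF embryos, and was at least 43.7-fold higher with a floor of 3 counts over the SRF-LOF group.

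Others of this kind were Stra8, a gatekeeper of meiosis, with 263 counts against 1, the homeobox gene Dmbx1 with 282 against 1, the arginine methyltransferase Prmt9 with 247 against 1, the tubulin carboxypeptidase Vash2 with 219 against 1, and the ADP-ribosyltransferase Art5 with 380 against 3. Hand1, a basic helix-loop-helix factor of trophoblast and heart, had 304 counts against 1, but its control embryos ranged from 0 to 92.6 CPM. Against control, its log2 fold change was 0.50 in DUX-LOF (adjusted p = 0.72) and -6.31 in SRF-LOF embryos (adjusted p = 0.0219). Pgm3, an enzyme of hexosamine synthesis, had 14.0, 81.9 and 129.3 CPM in DUX-LOF embryos, against 0, 1.30 and 6.83 CPM in SRF-LOF embryos (log2 fold change 5.22 ± 0.69, adjusted p = 1.69e-06). Control embryos lay between them, at 3.71 to 43.5 CPM, with log2 fold changes of 2.40 in DUX-LOF (adjusted p = 0.00103) and -2.81 in SRF-LOF (adjusted p = 0.0254). These genes were chosen among those in which every DUX-LOF embryo lay above every SRF-LOF embryo, so that separation follows from the choice. Those at or near 0 in SRF-LOF embryos passed the filter on low counts only through other groups.

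Known SRF targets gave no common direction. Of 39 tested actin cytoskeleton targets 7 were higher and 5 lower in DUX-LOF (17.7% and 17% over all genes), with a median log2 fold change of 0.09. With scaling to the maternal list 24 were higher, beside 5670 of all 11940 genes. Cfl1, which encodes the actin-severing protein cofilin, had 157.8, 324.3 and 516.4 CPM in DUX-LOF embryos and 654.5, 1130 and 1666 CPM in SRF-LOF embryos (log2 fold change -1.66 ± 0.24, adjusted p = 6.15e-06). The myosin light chain Myl12a fell by 1.82 ± 0.39 on the log2 scale (adjusted p = 0.0005). Fermt2, the integrin activator kindlin-2 with both motifs in its RefSeq window, was lower as well, at -1.25 ± 0.27 (adjusted p = 0.000586). Against control, Fermt2 was higher in SRF-LOF (1.24, adjusted p = 0.0219), and in DUX-LOF its value was -0.01 (adjusted p = 0.985). Acta1, skeletal muscle actin with a CArG box at -73, had 4.89, 21.9 and 38.6 CPM in DUX-LOF embryos and 0, 1.30 and 5.98 CPM in SRF-LOF embryos (log2 fold change 3.48 ± 0.72, adjusted p = 0.000357), with a median of 19.3 CPM in double-LOF and 1.24 CPM in control embryos.

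Of 24 tested immediate early genes 3 were higher in DUX-LOF and 2, Srf and Klf10, lower, beside 17.7% and 17% of all genes. The Srf row may hold reads of the injected mRNA. Against control its log2 fold change was 0.02 in DUX-LOF (edgeR, adjusted p = 0.978) and 3.79 in SRF-LOF embryos (edgeR, adjusted p = 7.72e-07). Ccn1, a matricellular protein gene, had 0, 7.01 and 74.5 CPM in DUX-LOF embryos and 0, 0 and 2.61 CPM in SRF-LOF embryos (log2 fold change 4.60 ± 1.20, adjusted p = 0.00346). The stress-induced factor Atf3 and the anti-apoptotic gene Mcl1 were higher by 2.37 ± 0.78 and 1.50 ± 0.45 on the log2 scale. Over all genes, leaving out SRF-LOF 3 and 8 gave 3740 of 12538 higher, and the maternal level as a covariate 456 of 11940. Without SRF-LOF 3 and 8, 11 of 25 tested were higher and 1 lower, and with the maternal level as a covariate none was higher and 1 lower (edgeR; 2 higher and 2 lower at an unadjusted p under 0.05; DESeq2 without the covariate called 4 and 2). Of 9 SRF cofactors and partners, Gata4 was called, with 72.2, 112.5 and 167.5 CPM in DUX-LOF embryos, against a lowest of 5.91 and a median of 18.7 CPM in SRF-LOF embryos without overlap (log2 fold change 2.62 ± 0.44, adjusted p = 3.67e-05).

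Among 28 tested preimplantation transcription factors 6 were higher and 3 lower in DUX-LOF, beside 17.7% and 17% of all genes. The pluripotency factor Esrrb had 19.3, 34.7 and 57.8 CPM in DUX-LOF embryos and 1.71, 11.8 and 21.1 CPM in SRF-LOF embryos (log2 fold change 1.59 ± 0.44, adjusted p = 0.00481). Klf17, a Krüppel-like factor of the early embryo, had 587.5 to 1061 CPM in DUX-LOF embryos and 1003 to 3200 CPM in SRF-LOF embryos (log2 fold change -1.46 ± 0.21, adjusted p = 6.62e-06). Without SRF-LOF 3 and 8, 16 members were higher and 3 lower, and without SRF-LOF 3 alone 10 and 3. Over all genes these fits called 3740 of 12538 and 2741 of 12238 higher. Scaling to the maternal list gave 10 higher members, beside 5670 of all 11940 genes. With the maternal level as a covariate none was higher and 1 was lower, with a median of -0.73 (edgeR; 3 higher and 7 lower at an unadjusted p under 0.05; DESeq2 without the covariate called 9 and 3). Within the 8 tested Obox homeobox genes, Obox2 and Obox1 were lower, with log2 fold changes of -2.77 ± 0.42 and -2.00 ± 0.41. Obox5 was higher at 1.53 ± 0.56 (edgeR, adjusted p = 0.0311). Against control, Obox2 and Obox1 were called in SRF-LOF (1.91 and 1.68, adjusted p = 0.0219 and 0.0301) and not in DUX-LOF (-0.86 and -0.32, adjusted p = 0.132 and 0.623).

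Of 18 tested genes of interferon signalling and RNA sensing 7 were higher in DUX-LOF and 2, Ifitm3 and Bst2, lower. Over all genes 17.7% were higher and 17% lower. The median log2 fold change of the 18 was 1.29. The median stayed above 0 under every scaling, and with the maternal level as a covariate 2 were higher. Zc3hav1, the antiviral zinc-finger protein ZAP, had 32.6, 46.8 and 61.9 CPM in DUX-LOF embryos and 3.39, 5.86 and 8.54 CPM in SRF-LOF embryos (log2 fold change 3.04 ± 0.34, adjusted p = 1.16e-07). Control embryos held 7.17 to 23.4 CPM. Mavs, the mitochondrial adaptor of RNA sensors, had 31.8, 54.5 and 93.6 CPM in DUX-LOF embryos and 6.23 to 23.8 CPM in SRF-LOF embryos (log2 fold change 2.28 ± 0.43, adjusted p = 0.000126). Oas1b, an oligoadenylate synthetase family member, had 182 counts in DUX-LOF and 1 in SRF-LOF embryos, with 2.16 to 44.2 CPM in double-LOF and 0 to 4.78 CPM in control embryos. The 18 tested members are those that passed the filter on low counts, out of 38 matched. DUX-LOF embryos held an oligonucleotide and no mRNA and SRF-LOF embryos mRNA and no oligonucleotide, so the part of the agents in this list cannot be told apart here. Against the controls, which also held an oligonucleotide, DUX-LOF had log2 fold changes of 1.85 for Zc3hav1 (adjusted p = 3.07e-05), 1.74 for Mavs (adjusted p = 0.0013) and 4.52 for Oas1b (adjusted p = 2.75e-05).

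Silencers of retroelements split into 13 higher and 6 lower of 38 tested, beside 17.7% and 17% of all genes, with a median log2 fold change of 0.52 that stayed above 0 under every scaling. With the maternal level as a covariate 4 were higher and 1 lower (median 0.20), and scaling to the maternal list gave 30 higher and 1 lower. Over all genes these fits called 456 and 5670 of 11940 higher. Ehmt1, the histone H3 lysine methyltransferase GLP, had 40.7, 86.4 and 107.6 CPM in DUX-LOF embryos and 5.91, 17.2 and 26.5 CPM in SRF-LOF embryos (log2 fold change 2.28 ± 0.36, adjusted p = 1.69e-05). Fam208a, a subunit of the HUSH complex, and Chaf1a, a chromatin assembly factor, were higher by 2.15 ± 0.43 and 1.33 ± 0.25. Zfp57, which guards imprints, had 97.4, 202.9 and 431.3 CPM in DUX-LOF embryos against 176.8, 1106 and 2280 CPM in SRF-LOF embryos (log2 fold change -2.23 ± 0.38, adjusted p = 4.24e-05). Against control, Zfp57 was higher in SRF-LOF (1.58, adjusted p = 0.0259) and not called in DUX-LOF (-0.65, adjusted p = 0.212).

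Of 48 tested cell cycle genes 10 were higher and 7 lower, beside 17.7% and 17% of all genes. Without SRF-LOF 3 and 8 these were 17 and 7 of 49, and with scaling to the maternal list 22 and 3. With the maternal level as a covariate they were 1 and 5 (median -0.48). Over all genes these fits called 3740 and 2556 of 12538, 5670 and 333 of 11940, and 456 and 477 of 11940. Leaving out SRF-LOF 3 alone called 2741 of 12238 genes higher and 2291 lower. Top2a, the topoisomerase of dividing cells, had 104.0, 179.7 and 256.2 CPM in DUX-LOF embryos and 18.5, 37.3 and 72.6 CPM in SRF-LOF embryos (log2 fold change 1.92 ± 0.33, adjusted p = 3.86e-05). The cyclins Ccnb1 and Ccne2 and the securin gene Pttg1 were lower, with log2 fold changes of -1.49 ± 0.23, -1.40 ± 0.25 and -2.27 ± 0.39, without overlap between the groups. Of 33 p53 targets 4 were higher and 4 lower, beside 17.7% and 17% of all genes. Among the higher were Mdm2, the ubiquitin ligase of p53, at 1.65 ± 0.26 (edgeR, adjusted p = 1.32e-05) and the cell cycle inhibitor Cdkn1a at 1.99 ± 0.51 (edgeR, adjusted p = 0.0028). Among the lower were Ddb2 at -1.79 ± 0.35 and Ddit4 at -1.54 ± 0.25. Leaving out 1 embryo at a time gave from 2 higher p53 targets, without SRF-LOF 4, 6 or 7 or DUX-LOF 8, to 7, without SRF-LOF 3. Without SRF-LOF 3 and 8, 11 of 34 were higher and 4 lower, scaling to the maternal list gave 10 higher, and the covariate gave 1 higher and 2 lower (median -0.68). Of 29 rows of stress response genes, in which Ddit3 has 2, 4 were higher and 3 lower, beside 17.7% and 17% of all genes. Without SRF-LOF 3 alone 8 of these genes were higher and 3 lower. Without SRF-LOF 3 and 8, 12 were higher and 2 lower, and scaling to the maternal list gave 12 higher. The covariate gave none higher and 2 lower, with a median of -0.66 (edgeR; 3 higher and 6 lower at an unadjusted p under 0.05; DESeq2 without the covariate called 6 and 3). Gclm, a subunit of the enzyme that starts glutathione synthesis, and the endoplasmic reticulum chaperone Hspa5 were higher at 1.87 ± 0.49 and 1.30 ± 0.35; with the maternal level as a covariate Hspa5 stood at -0.0062.

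Housekeeping groups depended on which SRF-LOF embryos entered. Over all genes 17.7% were higher and 17% lower with every embryo in the fit. Without SRF-LOF 3 and 8, 3740 of 12538 genes were higher and 2556 lower. The maternal level as a covariate gave 456 and 477 of 11940, and scaling to the maternal list 5670 and 333. Of 79 ribosome biogenesis genes 17 were higher and 3 lower in DUX-LOF (median 0.70), and without SRF-LOF 3 and 8 49 were higher and 3 lower; with the maternal level as a covariate none was higher and 14 were lower (median -0.79; edgeR; none higher and 29 lower at an unadjusted p under 0.05; DESeq2 without the covariate called 23 and 3). Polr1b, a subunit of RNA polymerase I, had 72.9, 110.5 and 221.2 CPM in DUX-LOF embryos and 1.17, 19.5 and 64.9 CPM in SRF-LOF embryos (log2 fold change 2.46 ± 0.54, adjusted p = 0.000715). Of 81 cytosolic ribosomal protein genes 7 were higher, Rpl3, Rplp2 and Rpl28 among them, and 4 lower, Rps27l among them, and without SRF-LOF 3 and 8 40 were higher and 2 lower; with the covariate 18 were lower. Leaving out 1 embryo at a time gave 6 to 35 higher ribosome biogenesis genes and 4 to 18 higher ribosomal protein genes, in both cases most without SRF-LOF 3. Of 59 spliceosome genes 11 were higher, among them the helicase gene Snrnp200 at 2.80 ± 0.54 and Rbm25 at 1.18 ± 0.21, and 8 lower, among them Snrpe at -1.70 ± 0.32 and Sf3b1 at -1.19 ± 0.21. Without SRF-LOF 3 alone 18 spliceosome genes were higher and 9 lower, and without SRF-LOF 3 and 8 25 and 10. Scaling to the maternal list gave 30 higher, and the covariate 1 higher and 6 lower (median -0.63).

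Genes of oxidative phosphorylation, proteasome and chaperones had more lower than higher calls with the main scaling and the reverse under the maternal scaling. Over all genes the main scaling gave 17.7% higher and 17% lower. Scaling to the maternal list called 5670 of all 11940 genes higher and 333 lower, so the reversal there was not particular to these lists. Leaving out SRF-LOF 3 and 8 called 3740 of 12538 genes higher and 2556 lower. Of 66 nuclear genes of oxidative phosphorylation none was higher and 13 were lower (edgeR; unadjusted p under 0.05 in 1 higher and 14 lower; DESeq2 called 1 and 13). Scaling to the maternal list gave 22 higher and 1 lower, and leaving out SRF-LOF 3 and 8 gave 19 higher and 15 lower. Cox5a of complex IV and Atp5b of the ATP synthase separated all embryos, at -2.01 ± 0.31 and -1.03 ± 0.16. Of 35 proteasome genes 10 were lower and 1 higher, while the maternal scaling gave 1 lower and 14 higher, and leaving out SRF-LOF 3 and 8 gave 9 lower and 11 higher; Psmb3 stood at -2.38 ± 0.39. Of 39 heat shock and chaperone genes 9 were lower and 3 higher, 1 and 15 by the maternal scaling, and 9 and 11 when SRF-LOF 3 and 8 were left out. The mitochondrial chaperone Hspa9 had 25.5, 55.2 and 105.1 CPM in DUX-LOF embryos and 173.3, 251.1 and 347.5 CPM in SRF-LOF embryos (log2 fold change -2.10 ± 0.32, adjusted p = 9.83e-06), and controls lay with SRF-LOF at 198.3 to 327.7 CPM. None of 13 mRNAs made by mitochondria was called (edgeR; none had an unadjusted p under 0.05, and DESeq2 called none), with a median of -0.12; with scaling to the maternal list 10 were higher.

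**Figure D3:**
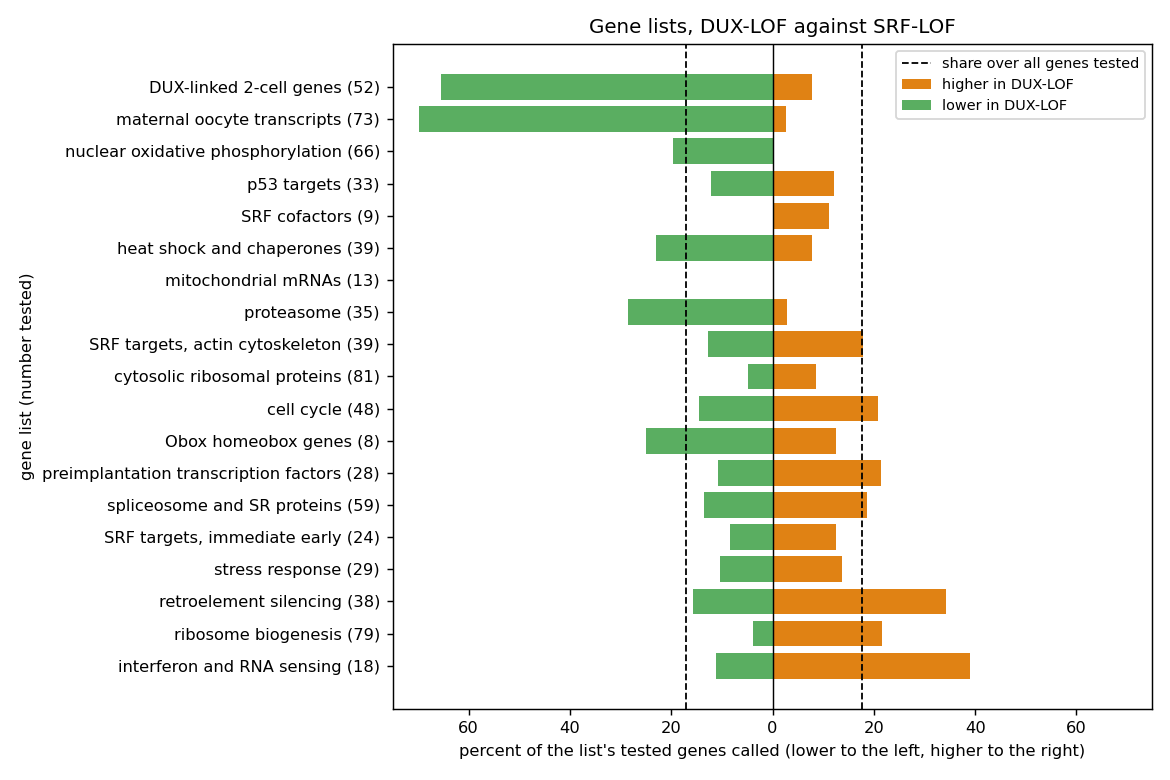
For each gene list, the percent of its tested genes called lower (left) or higher (right) in DUX-LOF than in SRF-LOF embryos; dashed lines mark 17% lower and 17.7% higher over all 11940 genes. DUX-linked genes (34 of 52 lower) and maternal transcripts (51 of 73 lower) lie furthest beyond the line. With scaling to the maternal list, those transcripts split into 18 lower and 14 higher. That scaling called 5670 of all 11940 genes higher, among them 22 of 66 oxidative phosphorylation, 14 of 35 proteasome and 15 of 39 chaperone genes. With the main scaling 13, 10 and 9 genes of these lists were lower.

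Double-LOF and control embryos share no embryo with the direct comparison, and they differ by both agents. A gene that responds to the DUX oligonucleotides alone would change in the same direction in double-LOF over control as in DUX-LOF over SRF-LOF, and a gene that responds to SRF-DN mRNA alone in the opposite direction. In double-LOF against control 1144 genes (9.58%) were higher and 1170 (9.8%) lower. Of the 4146 genes called between DUX-LOF and SRF-LOF, 1198 were also called there, 1181 with the same sign and 17 with the opposite sign. The 1181 were 28.5% of the calls of the direct comparison and 51.0% of those of double-LOF against control. They held 702 of the 2114 genes higher in DUX-LOF (33.2%) and 479 of the 2032 lower (23.6%).

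Of the opposite-sign genes, which are named here after their values were seen, Srf, Btrc and Banp were lower in DUX-LOF and higher in double-LOF. Btrc, the substrate receptor of an SCF ubiquitin ligase, had 23.4, 31.6 and 59.7 CPM in DUX-LOF embryos and 27.3, 60.8 and 178.8 CPM in SRF-LOF embryos (log2 fold change -1.04 ± 0.38, adjusted p = 0.03). In double-LOF embryos it had 19.9, 34.8 and 68.4 CPM and in controls 3.68, 18.5 and 37.1 CPM (log2 fold change 1.01, adjusted p = 0.0432). The call of Btrc between DUX-LOF and SRF-LOF was lost in 10 of 28 alternatives and its sign changed in 1. Banp had log2 fold changes of -1.38 ± 0.34 and 1.01, and in 5' reads its direct comparison was not called (adjusted p = 0.299). The other 14, higher in DUX-LOF and lower in double-LOF, were Alas1, Arpc5, Btg3, Cst7, Cxadr, Gm45902, Hspa14, Mrps26, Polr2m, Pramel4, Shbg, Tdp2, Tex19.2 and Zfp821. Among them the call of Polr2m was lost in 11 of 28 alternatives, with a change of sign in 1, and that of Shbg in 6 of 26.

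Alas1, the rate-limiting enzyme of haem synthesis, had 32.1, 56.2 and 84.2 CPM in DUX-LOF embryos, against 6.61, 9.38 and 29.9 CPM in SRF-LOF embryos (log2 fold change 2.01 ± 0.39, adjusted p = 0.000221). In double-LOF embryos it had 10.8, 35.1 and 65.5 CPM and in controls a lowest of 30.4 and a median of 89.2 CPM (log2 fold change -1.21, adjusted p = 0.00919). Both groups with SRF-DN mRNA had lower medians than both groups without. Mrps26, a mitochondrial ribosomal protein, had no overlap between DUX-LOF and SRF-LOF embryos either, with log2 fold changes of 1.43 ± 0.39 and, in double-LOF against control, -1.11 (adjusted p = 0.0177). Among these 14 genes Tex19.2 and Cst7 had the largest fitted values, 3.93 ± 1.10 and 4.41 ± 1.12 in the direct comparison and -2.78 and -2.88 in the other. The number of opposite-sign genes was 256 without SRF-LOF 3 and 8 and 1 with the maternal level as a covariate, while same-sign genes numbered 1228 and 815. Polr2m, Arpc5 and Cxadr changed sign with the covariate.

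**Figure D4:**
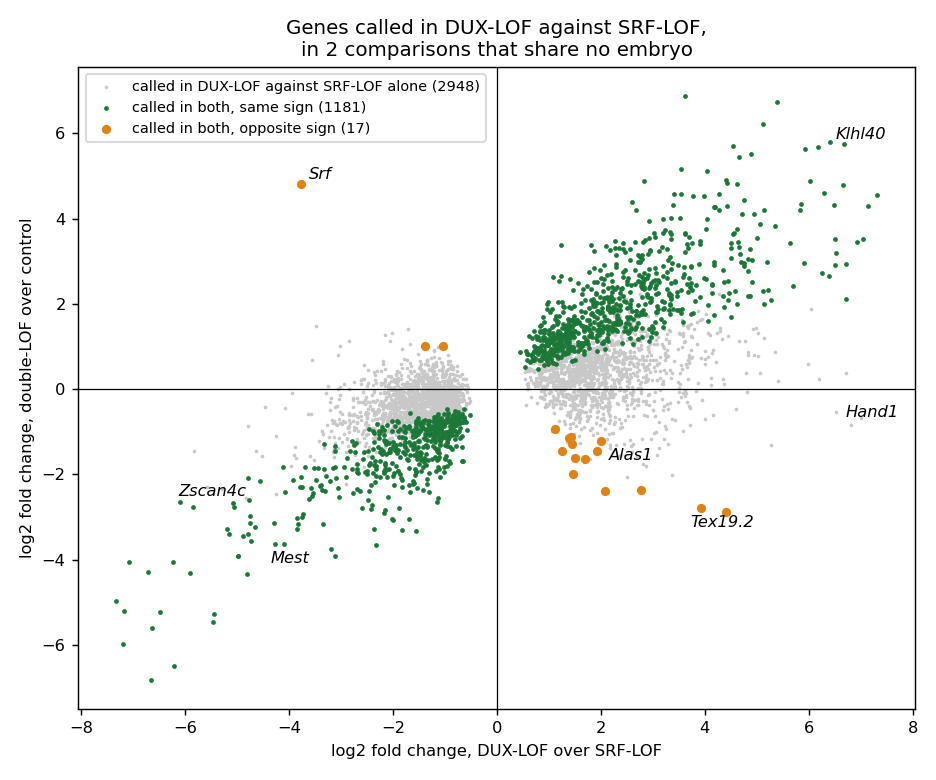
Log2 fold changes of the 4146 genes called in DUX-LOF against SRF-LOF, in that comparison (horizontal) and in double-LOF against control (vertical), which share no embryo; each point is a gene. Green points mark 1181 genes called in both with the same sign and orange points 17 with the opposite sign, Srf among them at -3.77 and 4.82.

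Of 628 repeat subfamilies tested in internal reads 65 (10.4%) were higher and 22 (3.5%) lower in DUX-LOF, and of 626 tested in 5' reads 109 (17.4%) were higher and 57 (9.11%) lower. The median log2 fold change of all repeats was 0.25, and 40 were called in both read classes in the same direction. In double-LOF against control 65 of the 628 repeats were higher and 14 lower. Of the repeats called between DUX-LOF and SRF-LOF, 32 were also called there with the same sign and 0 with the opposite sign. Without SRF-LOF 4 the number called between DUX-LOF and SRF-LOF was 48. ERCC scaling gave 135 higher and 7 lower, and scaling to the maternal list 530 higher and 4 lower.

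Rows of IAP elements, which are active mouse endogenous retroviruses, and of RLTR4 were among the repeats higher in DUX-LOF. IAPEz-int, the internal part of IAP elements, had 1046, 1528 and 2472 CPM in DUX-LOF embryos, against 341.9, 440.7 and 766.0 CPM in SRF-LOF embryos (log2 fold change 1.74 ± 0.28, adjusted p = 2.9e-05). Double-LOF embryos lay at 982.8 to 2914 CPM, near DUX-LOF, and control embryos at 154.5 to 862.3 CPM, near SRF-LOF. IAPLTR1_Mm, an LTR of this family, had 246.2, 320.2 and 447.1 CPM in DUX-LOF embryos and 50.2, 76.2 and 117.0 CPM in SRF-LOF embryos (log2 fold change 1.99 ± 0.25, adjusted p = 2.48e-07). In 5' reads IAPEz-int was higher too (2.15 ± 0.34), while IAPLTR1_Mm had medians of 327.2 CPM in DUX-LOF and 328.5 CPM in SRF-LOF embryos (log2 fold change 0.26, adjusted p = 0.498). RLTR4_Mm, RLTR4_MM-int and RLTR13G were higher by 2.74 ± 0.39, 1.37 ± 0.23 and 2.64 ± 0.37, in each case with no overlap. Other repeats went the other way without overlap: RLTR9D, X7C_LINE and Helitron3Na_Mam stood at -1.49 ± 0.33, -2.51 ± 0.36 and -1.80 ± 0.31. MLT1-int, at -2.69 ± 0.68, overlapped. In 5' reads RLTR9D was not called (log2 fold change -0.36, edgeR, adjusted p = 0.323). Of the list of IAP rows as a whole, 2 of 22 tested were higher and 2 lower, beside 10.4% and 3.5% over all repeats.

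Over all repeats 10.4% were higher and 3.5% lower in internal reads, and 17.4% and 9.11% in 5' reads. Of 96 tested LINE-1 subfamilies 23 were higher and 2 lower in internal reads, with a median log2 fold change of 0.47. Of 97 tested in 5' reads 39 were higher and 1 lower. Without SRF-LOF 4 the internal calls were 15 higher and 1 lower. Of 15 Alu-type SINE subfamilies 6 were higher in internal reads and 9 in 5' reads. Leaving out 1 embryo at a time gave from 1, without SRF-LOF 4, to 9, without DUX-LOF 3, and with the maternal level as a covariate none was called (edgeR; 5 higher at an unadjusted p under 0.05; DESeq2 without the covariate called 11 higher). Both medians stayed above 0 under every scaling. Without SRF-LOF 3 and 8 the LINE-1 calls were 13 higher and 5 lower.

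For MERVL, a retroelement that DUX activates, the MT2 LTR rows differed between the read classes, while MERVL-int was called in neither. MERVL-int had 3184, 11172 and 14365 CPM in DUX-LOF embryos and 4841, 8289 and 18540 CPM in SRF-LOF embryos, with a log2 fold change of -0.04 ± 0.35 (adjusted p = 0.937) in internal and -0.03 ± 0.36 (adjusted p = 0.959) in 5' reads. Of 7 rows of MERVL and MT2, MT2-Mm_i alone was called in internal reads (-1.26 ± 0.34, adjusted p = 0.0122), and 6 were lower in 5' reads, with a median of -1.34. The 6 MT2 rows together held 4638, 12678 and 25647 CPM of 5' reads in DUX-LOF embryos, against 31336, 38177 and 78542 CPM in SRF-LOF embryos, with no overlap. Their internal sums were 1756, 6203 and 8159 CPM in DUX-LOF and 3414, 6814 and 11748 CPM in SRF-LOF embryos, which overlap. In double-LOF embryos the 5' sum ran from 4886 to 38079 CPM and in controls from 14387 to 94013 CPM. MT2B1, an older LTR of the ERVL class, was lower in both read classes, at -1.11 ± 0.27 (adjusted p = 0.00562) and -1.07 (adjusted p = 0.000444). With scaling to the maternal list MERVL-int, MT2-Mm_iii, MT2-Mm_iv, MT2-Mm_v and MT2B1 had positive internal values, between 0.04 and 1.02. Rows of one family share reads, so single subfamily values are uncertain.

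**Figure D5:**
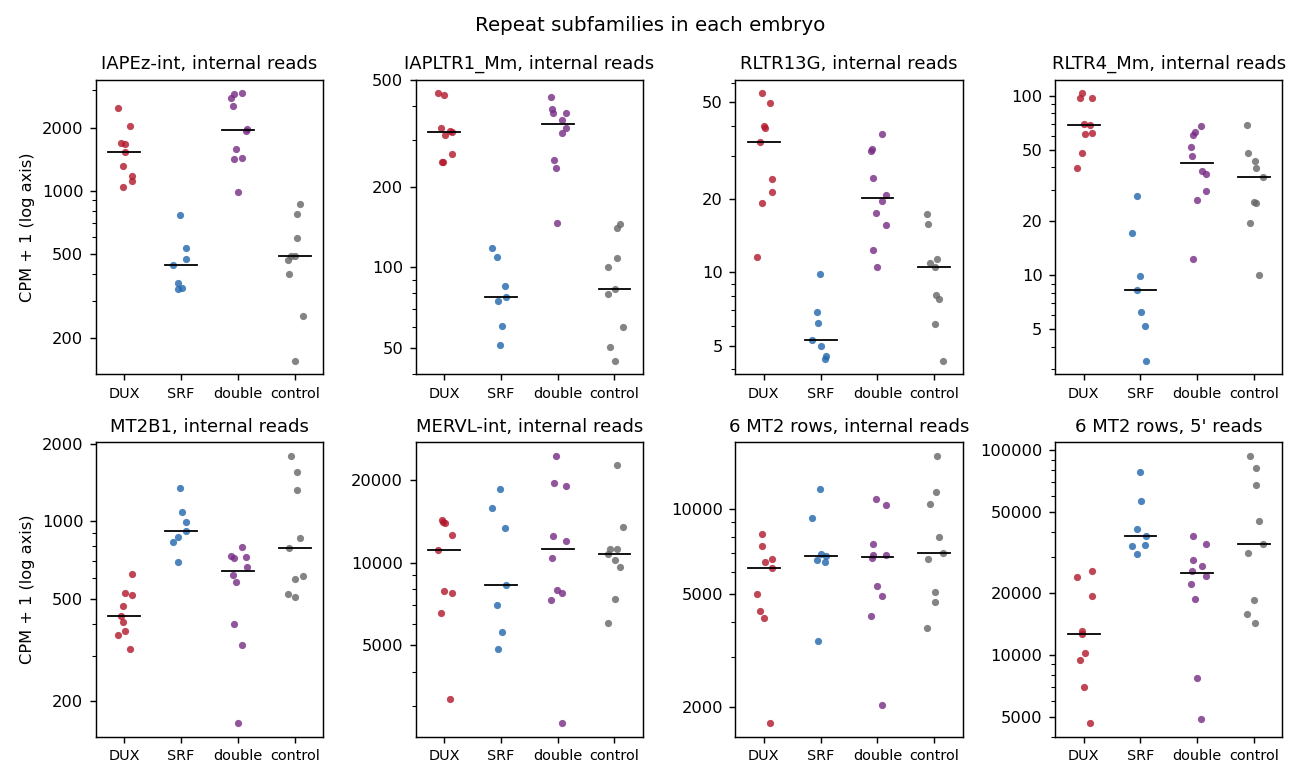
CPM plus 1 (log axis) of repeat rows in each embryo, lines at group medians, with the sum of 6 MT2 rows shown for internal and for 5' reads. The IAP and RLTR rows shown are higher in all DUX-LOF than in all SRF-LOF embryos. The MT2 sums separate the 2 groups in 5' reads (up to 25647 against at least 31336 CPM) and overlap in internal reads.

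Transcript length moved with direction. The median length of the longest annotated transcript was 3924 nt for genes higher in DUX-LOF, 2414.5 nt for genes lower and 3144 nt for all genes tested. When genes were split by length into 5 equal groups, 9.01% of the shortest (up to 1714 nt) were higher and 26.8% lower, and of the longest (from 5044 nt) 26.4% were higher and 8.68% lower. Median log2 fold changes ran from -0.38 in the shortest to 0.35 in the longest group in internal reads, from -0.39 to 0.30 in 5' reads and, in double-LOF against control, from -0.48 to 0.29. Median GC content was 50.65% for genes higher and 47.72% for genes lower in DUX-LOF. These are descriptions of the called genes, and the part of length in any single gene's result was not tested.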

How the data were processed

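Single late 2-cell embryos were sequenced with Smart-seq+5', and the authors deposited, per embryo, a table of internal reads and a table of 5' reads. The deposited internal tables hold counts of reads per gene, repeat subfamily and ERCC spike-in, and the deposited 5' tables were handled as estimated counts, although every value in them is a whole number and rounding changed none. Per the submitters' processing notes the tools and builds named include STAR 2.7.11a and GRCm38; the counting tool, annotation and strand setting are not given in the sources used here. Gene names came from GENCODE M21, which named 54809 of 54838 gene rows. Reads that map to several repeat copies or gene copies may have been split or dropped in counting, which affects Zscan4, Dux and repeat rows most.

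Genes and repeats were fitted separately, each over all 35 embryos in 4 groups, with edgeR 4.0.16 (quasi-likelihood test, limma 3.58.1, R 4.3.3). Both fits followed filterByExpr and used TMM factors from gene rows. P-values were adjusted by Benjamini-Hochberg, separately for genes and repeats, at 0.05. DESeq2 1.42.0 was an alternative, and 28 alternatives were tried in all. The fitting code was tested on simulated data with 4-fold changes. Groups came from sample titles; no pair of embryos in a group agreed within sampling noise. Named genes are Srf and Duxf3, the 10 largest differences per direction among protein-coding genes of at least 10 CPM, leaving out genes named by a model or clone number, that were called in both read classes without overlap, up to 4 members per list with the lowest adjusted p and up to 5 repeats per direction; others are named as list members or as said in the text. The members and lists were chosen with earlier results of these data known. Depth limits low genes: counting intervals and the floor of 3 counts cover counting error only.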

Additional observations from a re-analysis of the deposited data

Results flagged for a closer look

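In 27 of 236 groups tested, counting named genes and repeats in DUX-LOF or SRF-LOF embryos, 1 embryo lay far from the others of its group; chance flags about 1 in 20 groups. All values are CPM of internal reads.

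DUX-LOF 10 stood apart most often in its group. It had 117 CPM of Duxf3, far above its group, and was far below it in Rfpl4 (21.7), Rps27l (87.7), Obox5 (132), Pramel4 (6.21), MT2-Mm_ii (1050) and MT2-Mm_iii (225). DUX-LOF 3 was low in Gm45902 (9.78), Fam208a (6.29) and Stat2 (12.6), DUX-LOF 5 in Mest (1.75), DUX-LOF 4 in Cxadr (1.02) and DUX-LOF 12 in Banp (15.6).

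SRF-LOF 3 was low in Psmb3 (23.1), Snrpe (80.3), Ahsa1 (555) and Rps27l (184), and high in Shbg (7.69). SRF-LOF 9 was low in Gata4 (5.91). In genes with 1 count over the whole SRF-LOF group the embryo that held it stood apart: SRF-LOF 3 in Klhl40, Tbx21 and Hand1 (0.854 each), SRF-LOF 4 in Oas1b (0.848), SRF-LOF 5 in Vash2 (1.32), SRF-LOF 6 in Stra8 (1.04) and SRF-LOF 8 in Prmt9 and Dmbx1 (0.651 each).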

How the results depend on the processing

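Across 28 alternatives the number of genes called stayed within 1.5 times of 4146 except for 933 with the maternal level as a covariate, an alternative chosen after seeing the data, and 6296 without SRF-LOF 3 and 8. Leaving out 1 embryo at a time gave 3508 to 5032 genes and 48 to 111 repeats, the lowest repeat count without SRF-LOF 4. Repeats called numbered 149 with DESeq2, 144 with only the 16 embryos, 166 in 5' reads, 142 with ERCC scaling and 534 with scaling to the maternal list, against 87. Genes called both here and in double-LOF against control numbered 613 with ERCC scaling, against 1198; the fit of only 16 embryos cannot give this number. With scaling to the maternal list the log2 fold changes of Sf3b1 (0.0335), Ndufab1 (0.0338), Hspd1 (0.0277), Btrc (0.2844), Atp5b (0.0519), Mphosph10 (0.0905), Psmd2 (0.2702), Psmd1 (0.3046), Psmd3 (0.3692), MT2B1 (0.0427), MT2-Mm_iii (0.8933), MERVL-int (1.0138), MT2-Mm_iv (1.0153) and MT2-Mm_v (0.9765) changed sign. With the maternal level as a covariate those of Hspa5 (-0.0062), Polr2m (-0.0217), Arpc5 (-0.2336), Cxadr (-0.6316) and MLT1-int (1.5551) did, and 66 of 118 named genes and repeats were no longer called. The cause of these changes was not tested. Leaving out 1 embryo at a time moved Duxf3 between -2.0678, without DUX-LOF 10, and 0.395, without SRF-LOF 4.

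With the replicate number as a block, 3290 genes and 52 repeats were called, and 9 of 118 named genes and repeats were no longer called. Correlations of same-numbered embryos ran from -0.133 to 0.247 and 2 of 6 numbers matched best with their own. These values cannot show whether same-numbered embryos share a litter, injection day or batch, which the labels do not name. At these depths a gene with under 3 counts over a group gives a ratio with a wide interval, and absence was not shown.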
